A study of Mus musculus with 60 samples.

Results

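Brown adipose tissue (BAT) was compared with inguinal white adipose tissue (iWAT), the subcutaneous fat of the groin, in the same 5 obese mice. The series holds 60 bulk RNA sequencing libraries of 6 tissues. The comparison uses 10 of them, BAT and iWAT of the vehicle-treated mice numbered 1 to 5, paired by mouse number. The animals were male wild type mice with diet-induced obesity, of the strain C57BL/6 by the labels and C57BL/6J by the methods of the study. They had been placed on a high-fat diet at 12 weeks of age, stayed on it for 16 to 20 weeks, and received daily intraperitoneal injections of vehicle for 1 week at about 28 weeks of age. Every mouse compared was therefore obese, and lean mice were not part of the comparison. The BAT and iWAT libraries of mice 6 to 10, which received sulforaphane (SFN, 5 mg/kg) in place of vehicle, serve as a second set of animals. Members are the genes whose level averaged 0.5 FPKM or more across these 10 libraries, 14017 of the 54532 genes in the deposited table. FPKM is the read count of a gene scaled by its length and by 1 factor for each library.

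Both depots store triglyceride in adipocytes, but they are known for opposite uses of it. Brown adipocytes hold many small lipid droplets and a dense mitochondrial network, and they burn fatty acids and glucose to produce heat. The heat comes from uncoupling protein 1, which lets protons return across the inner mitochondrial membrane without driving ATP synthesis. White adipocytes hold 1 large droplet, release fatty acids on demand and secrete hormones such as leptin. Inguinal fat is also the mouse depot best known for beige adipocytes, which can gain brown features in the cold. A piece of fat further holds vessels, nerves, fibroblasts and immune cells, and in bulk RNA fewer cells of a type and less RNA per cell cannot be told apart.

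The depth was 15769229 to 19607120 reads in BAT and 17516279 to 18833956 in iWAT. Transcripts of the mitochondrial genome took 19.9 to 22.4% of all reads in BAT and 3.63 to 5.35% in iWAT. A few libraries carried RNA that the others lacked. The summed level of the 30 muscle fibre genes was 5759.9 FPKM in the BAT library of mouse 3, 1083 in that of mouse 5, 473 in that of mouse 1 and 2387 in the iWAT library of mouse 4. It was 46.4 to 79.7 FPKM in the other 6. The highest of these, in BAT of mouse 3, was 3.70% of the sum in skeletal muscle of the same mouse. The iWAT library of mouse 2 stood apart through lymphocytes, with a sum over 13 B cell genes of 527 FPKM, against 8.59 to 23.3 in the other iWAT libraries and 2.52 to 9.02 in BAT. Its T and NK cell genes summed to 167 FPKM against at most 6.95 in the other 9 libraries, and its white fat genes to 5418 FPKM against 7117 to 8178 in the other iWAT libraries. The nerve and Schwann cell genes were highest in iWAT of mouse 4, at 309 FPKM against 66.3 to 166 in the other iWAT libraries. Values written with ± are the mean and SD of 5 mice.

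**Figure D1:**
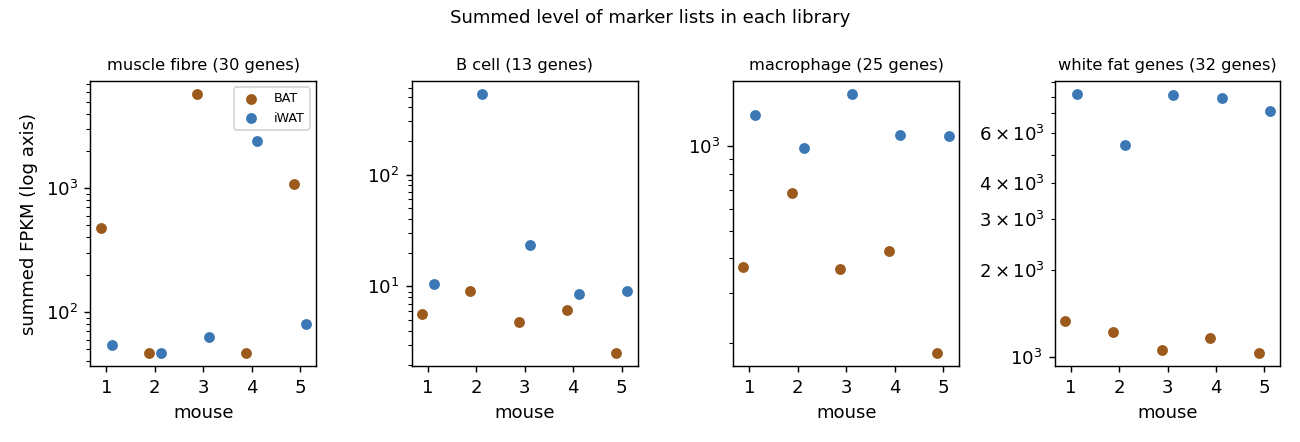
Summed FPKM (log axis) of muscle fibre, B cell, macrophage and white fat genes in each library, by mouse; each point is 1 library. The muscle sum is high in BAT of mice 1, 3 and 5 and in iWAT of mouse 4, and the B cell sum is high only in iWAT of mouse 2.

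The defining markers matched the labels. Ucp1, which encodes uncoupling protein 1, was at 3361, 2442, 3716, 3605 and 4410.2 FPKM in the BAT of mice 1 to 5 and at 0.143, 0.337, 0.144, 0.117 and 0.421 FPKM in their iWAT. All 5 BAT values lay far above every iWAT value, and the mean was 3507 ± 711 against 0.232 ± 0.138 FPKM (SD, n = 5 and 5). The difference, BAT minus iWAT on the scale log2(FPKM + 0.1), was 13.43 (SE 0.24, adjusted p = 7.05e-07 by limma with the mouse as a block). Only 44 of all reads in the 5 iWAT libraries fell on Ucp1, and 448218 in BAT. Added 0.1 FPKM makes such a difference a low estimate where 1 depot is near 0. Lep, which encodes leptin, ran the other way, at 104, 123, 74.3, 73.7 and 70.8 FPKM in BAT and 1556, 974, 1295, 1162 and 1201 FPKM in iWAT. The iWAT values were all higher, with no overlap (log2 difference -3.81, SE 0.18, adjusted p = 6.83e-06). Levels of Lep in BAT were low beside iWAT but far from 0. In epididymal fat (eWAT), the visceral white depot of the same mice, Ucp1 averaged 0.126 FPKM and Lep 466 FPKM.

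The stretch around the Ucp1 start site is shown because this gene carried the largest difference of all those tested. It spans 250 bases before and 50 bases from the start, 5′ to 3′ on the strand of the gene, chr8:83290098-83290397, plus strand, from RefSeq on GRCm38.p6.
Ucp1 start region: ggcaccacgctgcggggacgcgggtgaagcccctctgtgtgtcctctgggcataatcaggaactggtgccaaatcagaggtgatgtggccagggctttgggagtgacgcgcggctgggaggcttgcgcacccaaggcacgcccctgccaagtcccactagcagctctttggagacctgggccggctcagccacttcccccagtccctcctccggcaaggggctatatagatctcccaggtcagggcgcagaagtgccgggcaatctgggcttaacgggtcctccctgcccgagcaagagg
A set of 4 short motifs known from genes of energy metabolism were searched on both strands in such windows of 9974 tested genes. None of the 4 has its exact letters in the Ucp1 window, which is therefore printed in lower case throughout. Variants of these letters and stretches farther from the start site were not searched, so elements of these kinds may be present. They are the element AAGGTCA bound by estrogen-related receptors (ERR), its extended form TCAAGGTCA, which contains the shorter one, the cAMP response element TGACGTCA and the core GCGCATGC of nuclear respiratory factor 1. Their shares over all 9974 genes were 4.14%, 0.341%, 3.43% and 5.83%. Among the 640 genes over 2-fold higher in BAT with such a window, the shares were 7.66%, 0.781%, 3.44% and 6.72% in the same order. The last 2 are close to those of all genes. Among the 536 over 2-fold higher in iWAT they were 3.54%, 0.187%, 1.68% and 2.61%. A match of letters is a description of the window and not a site of binding.

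Most genes differed between the depots. Of the 14017 genes, 8383 (59.8%) passed an adjusted p of 0.05, with 3839 (27.4%) higher in BAT and 4544 (32.4%) higher in iWAT. These shares are the background for every count of a gene group below on the deposited scale with all 5 mice. Tested against a 2-fold difference, 923 genes (6.58%) were higher in BAT and 765 (5.46%) higher in iWAT. All 5 BAT values lay above all 5 iWAT values for 3166 genes (22.6%) and below them for 3545 (25.3%). The median log2 difference over all genes was -0.07. The first principal component, which separated the depots, held 63.7% of the variance. The direction of small differences depends on what the libraries are scaled to. The total FPKM was 442989 to 517094 in BAT and 228097 to 283378 in iWAT. After division by it the median moved to -0.90, and 10.6% of the calls were higher in BAT in place of 45.8%. Then 1242 of the 14017 genes were higher in BAT and 10504 higher in iWAT, the background for counts under this scaling. Under quantile normalization that background was 4248 and 4058. Scaled to the total without the most abundant genes the median was -0.30, with 29.4% of calls higher in BAT. Differences are best read relative to these medians, and named genes whose sign flips are marked as such.

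**Figure D2:**
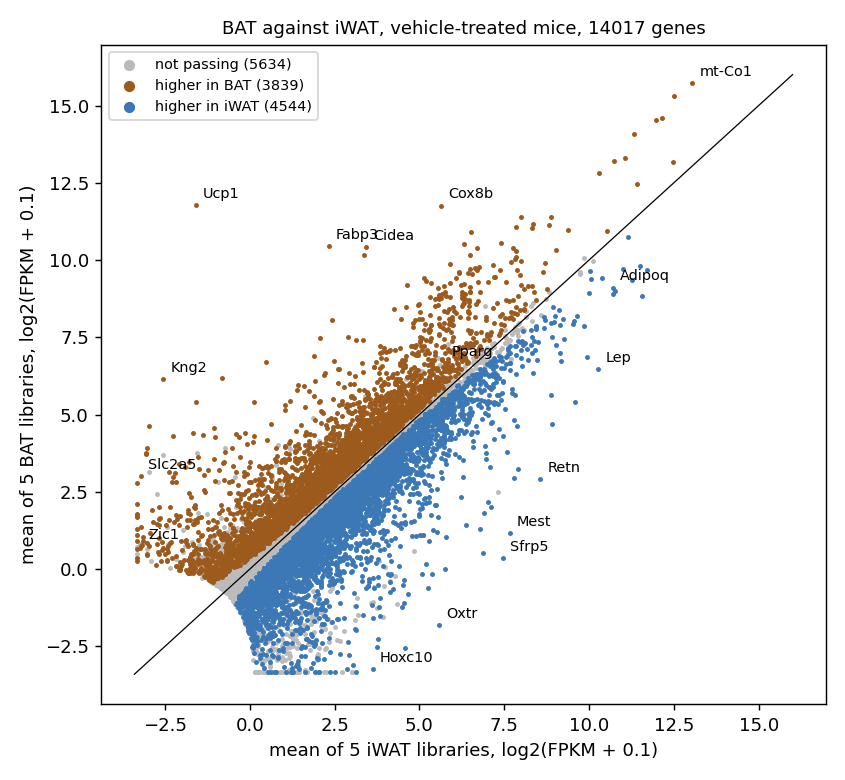
Mean log2(FPKM + 0.1) of each of 14017 genes in the 5 iWAT libraries (horizontal) and the 5 BAT libraries (vertical); the line marks equal levels and colours mark genes that passed. The cloud is split around the line, 3839 genes above and 4544 below it among those that passed, and Ucp1 lies farthest from it.

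Genes that mark brown adipocytes were higher in BAT almost without exception. Of 40 tested genes in that list, 37 were higher in BAT, 33 of them over 2-fold, with 37 free of overlap and a median log2 difference of 3.60. The count higher in BAT was 37 as well without the BAT library of mouse 3 and the iWAT libraries of mice 2 and 4. That fit had no mouse block. Cidea, a lipid droplet protein of brown fat, was at 1422, 1107, 1333, 1475 and 1544 FPKM in BAT and 6.16, 7.30, 13.3, 10.7 and 15.6 FPKM in iWAT (log2 difference 7.08, SE 0.18, adjusted p = 1.22e-06). Thus the iWAT of these mice held Cidea at a low level in each animal, while Ucp1 stayed under 1 FPKM in each. A pair of muscle-type subunits of cytochrome c oxidase is in the list too. Cox7a1 reached 1317, 857, 1102, 1216 and 1243 FPKM in BAT against 6.83, 5.71, 7.13, 21.2 and 9.95 in iWAT, and Cox8b 3479 ± 542 FPKM against 49.2 ± 24.1. For both the highest iWAT value was that of mouse 4, whose iWAT library carried muscle RNA, and skeletal muscle itself was at 566 FPKM for Cox7a1 and 1098 for Cox8b. The part of muscle RNA in these iWAT values was not tested, and without mouse 4 both still passed in the same direction.

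The regulators of the brown program were higher in BAT too, most of them at modest levels. Ppara, the fatty acid-sensing nuclear receptor, was at 32.2, 40.9, 46.8, 42.7 and 47.2 FPKM in BAT and 0.977, 0.566, 1.06, 1.24 and 1.17 in iWAT (log2 difference 5.28, SE 0.15, adjusted p = 1.57e-06). The lowest BAT value, that of mouse 1, was still far above the highest iWAT value. Ppargc1a, the coactivator of mitochondrial biogenesis, was at 6.37, 5.50, 9.67, 10.95 and 10.96 FPKM in BAT and 0.696, 0.687, 0.671, 0.969 and 0.884 in iWAT (log2 difference 3.28, SE 0.14, adjusted p = 4.45e-06). Dio2, which converts thyroxine to active thyroid hormone, was at 8.93, 6.78, 13.8, 13.8 and 24.8 FPKM in BAT and 0.499, 0.297, 0.389, 0.664 and 0.671 in iWAT (log2 difference 4.41, SE 0.18, adjusted p = 4.08e-06). Its BAT values spread widely, with mouse 2 lowest and mouse 5 highest, yet none came near iWAT. Esrra and Esrrg, which encode 2 of the ERR factors named above, differed by 2.02 and 2.58 on the log2 scale. Ebf2, an early factor of brown fat commitment, differed by 2.43. Prdm16, which holds adipocytes in the brown fate, was closer between depots than these regulators, at 5.24 ± 0.999 FPKM in BAT and 2.32 ± 0.463 FPKM in iWAT (log2 difference 1.14, SE 0.07, adjusted p = 2.47e-05). Cpt1b and Elovl3, of fatty acid entry and elongation, had log2 differences of 5.21 and 3.995, Otop1, a proton channel, 3.20, and Letmd1, a mitochondrial protein needed for brown fat function, 4.27.

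A few brown fat genes did not follow. Lhx8, a factor often used as a brown marker, was at 0.547, 2.02, 0.64, 1.48 and 0.837 FPKM in BAT and 2.83, 1.67, 2.29, 4.54 and 1.99 FPKM in iWAT, with the BAT value of mouse 2 inside the iWAT range (log2 difference -1.26, SE 0.33, adjusted p = 0.0157). Its adjusted p was 0.0522, 0.0523 and 0.0512 on leaving out mouse 1, 3 or 4, and without mice 3 and 4 it was 0.159. Epsti1 was higher in iWAT, at 2.42, 21.7, 2.84, 3.16 and 2.89 FPKM there and 1.25, 1.88, 0.902, 1.36 and 0.707 in BAT (log2 difference -1.79, SE 0.36, adjusted p = 0.0048). The iWAT value of mouse 2, the library rich in lymphocytes, stood apart, and without that mouse the log2 difference was -1.37 (adjusted p = 0.0019). Irf4, a transcription factor of brown fat and of lymphocytes, was at 1.30, 4.38, 1.38, 1.16 and 1.47 FPKM in iWAT and 0.874 to 1.13 in BAT (log2 difference -0.69, SE 0.29, adjusted p = 0.0769). Its highest value was again in iWAT of mouse 2, and without that mouse the log2 difference was -0.35 (adjusted p = 0.0334).

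Among all protein-coding genes, the 15 with the largest excess in BAT, each in all 5 mice, were, in order, Ucp1, Fabp3, Kng2, Lgr6, Cidea, Cox7a1, Acot11, Aspg, Slc27a2, Cpn2, Cox8b, Pank1, Slc25a48, Slc2a5 and Coq8a. Fabp3, the heart-type fatty acid-binding protein, was at 1405, 1054, 1406, 1648 and 1543 FPKM in BAT and 0.398, 0.536, 0.801, 22.4 and 0.446 FPKM in iWAT (log2 difference 10.08, SE 0.77, adjusted p = 6.29e-05). The iWAT library of mouse 4 was the exception among low iWAT values, and skeletal muscle of these mice averaged 1801 FPKM. Without mouse 4 the log2 difference of Fabp3 was 11.06. Kng2, which encodes a kininogen, was at 71.2 ± 3.11 FPKM in BAT and 0.0708 ± 0.036 in iWAT (log2 difference 8.73, SE 0.14, adjusted p = 6.09e-07). Lgr6, a receptor of the Wnt-enhancing R-spondins, was at 24.6 ± 4.87 against 0.0274 ± 0.0148 FPKM (log2 difference 7.58, SE 0.16, adjusted p = 7.6e-07). Both were below 0.1 FPKM on average in iWAT. Acot11, a thioesterase that splits acyl-CoA, had a log2 difference of 6.96, and Slc27a2, which activates very long fatty acids, 6.94. Pank1, the first step of coenzyme A synthesis, rose to 104 ± 10.9 FPKM from 1.29 ± 0.189 FPKM in iWAT, and Coq8a, of coenzyme Q synthesis, to 267 ± 21.0 from 5.32 ± 0.859. Slc25a48, a mitochondrial carrier, had a log2 difference of 6.14, Aspg, an asparaginase, 6.94, and Cpn2, a subunit of carboxypeptidase N, 6.60. Slc2a5, the fructose transporter, was at 5.64, 5.99, 12.6, 4.72 and 10.8 FPKM in BAT, while in iWAT 3 of 5 libraries had no read. With 2075 reads in BAT and 3 in iWAT the ratio was 993, with an exact 95% counting interval of 339 to 4821. Intervals of this kind cover counting error only.

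**Figure D3:**
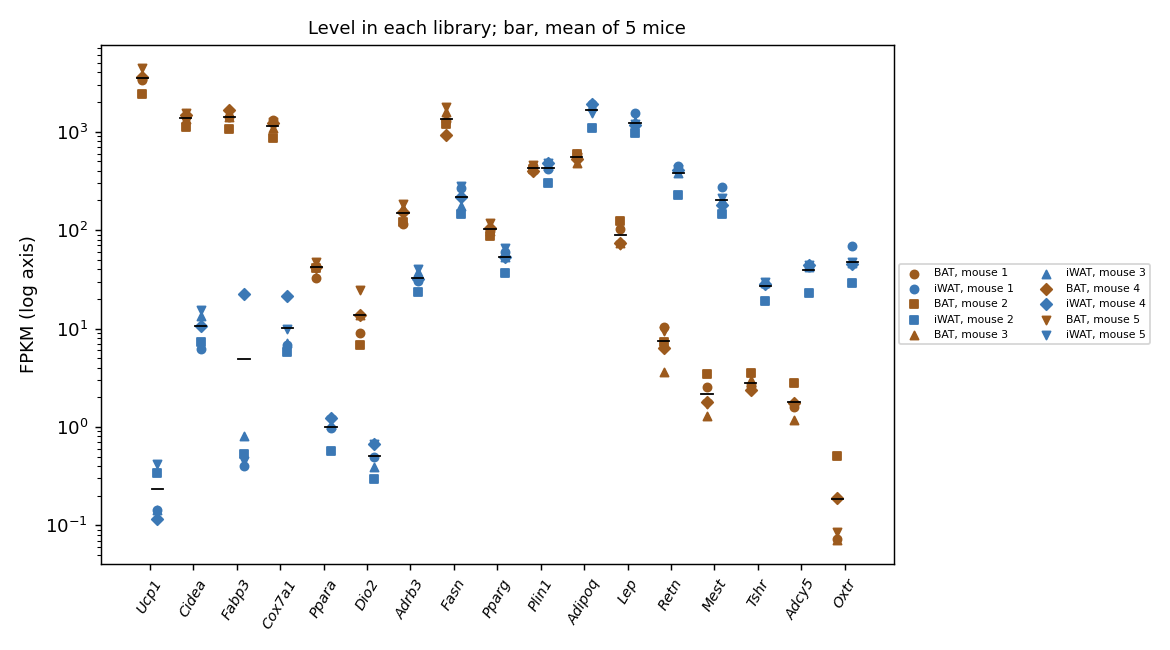
FPKM (log axis) of 17 genes in each of the 10 libraries, BAT in brown and iWAT in blue, with a symbol for each mouse and a bar at the mean of 5. Ucp1 to Pparg are higher in BAT, Plin1 overlaps between the depots, and Adipoq to Oxtr are higher in iWAT.

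The respiratory chain was higher in BAT across its complexes. All 36 nuclear-encoded subunits of complex I (median log2 difference 2.17), all 4 of complex II (2.82) and all 10 genes of complex III and cytochrome c (2.56) passed as higher in BAT. Of 16 complex IV genes 14 were higher in BAT (median 2.22), and of 17 genes of ATP synthase and its inhibitor 14 (median 1.76). Beside a background of 27.4% higher in BAT, that is 78 of 83 genes. Ndufv1, which binds NADH in complex I, was at 509, 406, 475, 495 and 522 FPKM in BAT and 52.2, 35.8, 52.0, 54.2 and 57.5 in iWAT (log2 difference 3.27, SE 0.07, adjusted p = 8.46e-07). Its iWAT values were alike except for a lower one in mouse 2, and none approached BAT. Sdhb of complex II had a log2 difference of 3.25, Uqcrfs1, the Rieske protein of complex III, 3.001, and Atp5b, the catalytic subunit of ATP synthase, 2.72. The smallest rise in complex I was that of Ndufb3, 284 ± 32.4 against 125 ± 22.2 FPKM (log2 difference 1.19). Cox6a1, the widely used form of its subunit, reached 2266 ± 275 FPKM against 453 ± 72.3, and Cox7a2l, an assembly factor of supercomplexes, differed by 0.89.

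Isoforms of 1 subunit differed from each other. Of the 3 genes that encode the same ring subunit of ATP synthase, Atp5g3 was at 118, 89.8, 113, 107 and 119 FPKM in BAT and 132, 84.6, 124, 136 and 138 in iWAT and did not pass (log2 difference -0.15, SE 0.08, adjusted p = 0.126). Atp5g2 was higher in BAT, at 76.8 ± 7.11 FPKM against 32.1 ± 1.84 (log2 difference 1.25, SE 0.07, adjusted p = 1.32e-05). Atp5g1 was lower in BAT in 4 of 5 mice, at 2.03, 2.63, 8.11, 2.16 and 3.01 FPKM against 7.32, 6.67, 6.84, 8.72 and 6.92 in iWAT (log2 difference -1.20, SE 0.31, adjusted p = 0.014). The 1 high BAT value was that of mouse 3, the BAT library with the most muscle RNA, and skeletal muscle averaged 148 FPKM. Without mouse 1 the adjusted p was 0.0516, and these genes have similar copies between which reads can be split. Atpif1, the inhibitor of ATP synthase, was at 6.98 ± 2.05 FPKM in BAT and 13.7 ± 2.17 FPKM in iWAT (log2 difference -0.99, SE 0.14, adjusted p = 0.00119). Cox6a2, the muscle form of its subunit, was at 6.11, 0.186, 102, 0.158 and 17.3 FPKM in BAT and 4.34, 2.81, 2.91, 30.0 and 3.24 in iWAT, highest in the libraries with the highest muscle sums (log2 difference -0.45, adjusted p = 0.826, and -0.16, adjusted p = 0.92, without mice 3 and 4). Cox4i2 also did not pass, at 6.56 ± 1.495 and 5.10 ± 0.812 FPKM, and its difference turned negative after division by total FPKM.

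Sdhd of complex II and Atp5g3 are shown because among the 67 respiratory chain genes with a start region only these 2 hold the extended ERR element, 2.99% beside 0.341% of all genes, and the first rose while the second did not. Sdhd was at 578, 456, 545, 574 and 617 FPKM in BAT and 95.2, 65.3, 92.8, 94.1 and 99.98 in iWAT (log2 difference 2.64, SE 0.07, adjusted p = 1.22e-06). The capitals mark TGACCTTGA, which is TCAAGGTCA read on the other strand. It begins 36 bases after the start site in Sdhd and at position -52 from it in Atp5g3. The Sdhd stretch is chr9:50603800-50604099 and that of Atp5g3 is chr2:73911277-73911576, both on the minus strand of GRCm38.p6, from RefSeq.
Sdhd start region: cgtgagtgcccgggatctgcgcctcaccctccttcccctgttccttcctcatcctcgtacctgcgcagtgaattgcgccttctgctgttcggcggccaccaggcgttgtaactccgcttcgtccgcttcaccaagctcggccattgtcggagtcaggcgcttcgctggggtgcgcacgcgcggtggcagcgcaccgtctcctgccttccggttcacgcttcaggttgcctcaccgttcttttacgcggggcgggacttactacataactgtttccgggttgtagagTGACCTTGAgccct
Atp5g3 start region: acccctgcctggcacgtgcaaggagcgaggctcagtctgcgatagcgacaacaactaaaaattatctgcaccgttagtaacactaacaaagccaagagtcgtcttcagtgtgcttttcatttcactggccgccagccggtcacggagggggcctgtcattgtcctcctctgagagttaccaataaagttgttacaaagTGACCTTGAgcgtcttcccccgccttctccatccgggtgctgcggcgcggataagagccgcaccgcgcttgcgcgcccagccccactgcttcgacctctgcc
Of the 67 genes, 9 (13.4%) held AAGGTCA beside 4.14% of all genes, 11 (16.4%) the core of nuclear respiratory factor 1 beside 5.83%, and 5 (7.46%) the cAMP response element beside 3.43%. In the 30 brown fat genes with a window the first of these was found once. It was held by 4.17% of the citric acid cycle genes and 4.76% of the fatty acid oxidation genes, close to the share of all genes. Thus the letters occurred both in a gene that was higher in BAT and in a gene that was not.

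Transcripts of the mitochondrial genome, which encodes 13 proteins of the same complexes, were all higher in BAT (median log2 difference 2.83). After division by total FPKM all 13 still passed, with a median of 1.97. Under quantile normalization 10 passed (median 1.40), and without the filter on low values 9. The most abundant, mt-Co1, was at 53306, 52556, 57648, 52474 and 54396 FPKM in BAT and 8817, 5997, 9134, 9976 and 8450.4 in iWAT (log2 difference 2.69, SE 0.22, adjusted p = 9.03e-05). Relative to the mean, the spread in iWAT was wider than in BAT, with mouse 2 lowest and mouse 4 highest. mt-Cytb had a log2 difference of 2.83, mt-Co3 3.49 and mt-Nd6 2.24. Stretches of the mitochondrial genome have near-identical copies in the nuclear genome, and mt-Nd6 lies opposite other mitochondrial genes, so the levels of single mitochondrial genes are uncertain as far as reads could be split between copies or strands.

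**Figure D4:**
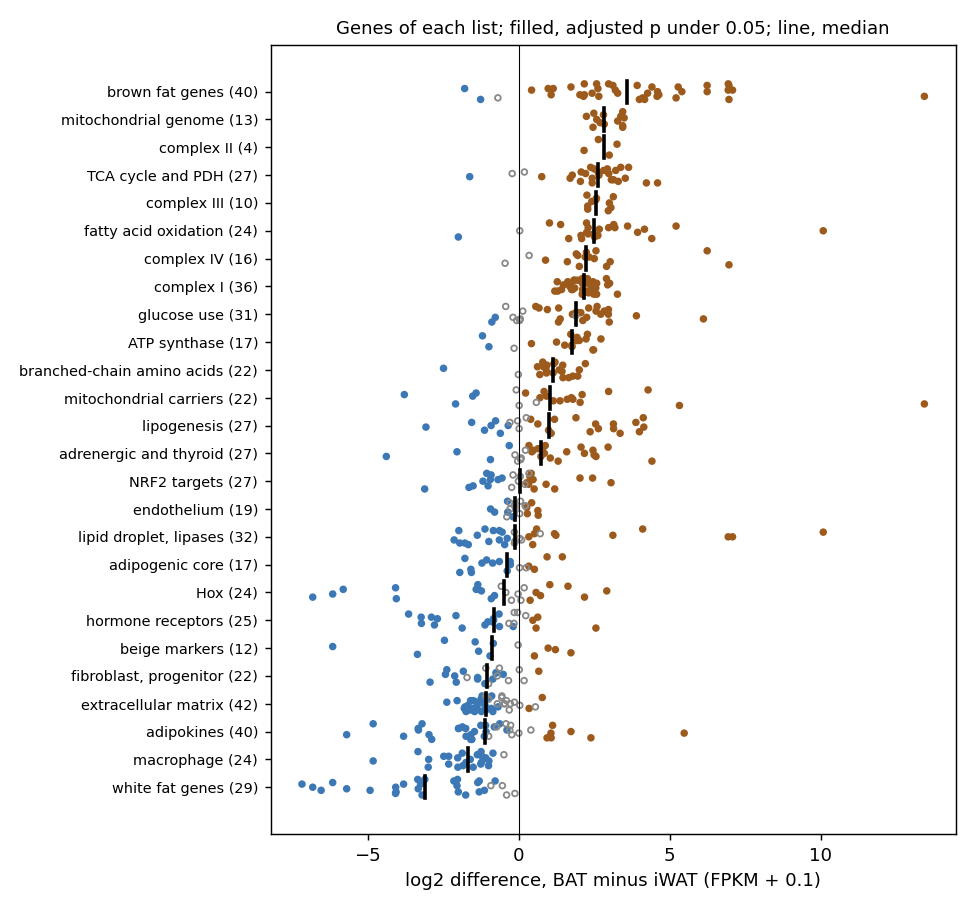
Log2 difference (BAT minus iWAT) of each tested gene in 26 gene lists, with the number of genes in brackets; filled points passed an adjusted p of 0.05, open points did not, and the line is the median. Mitochondrial lists lie to the right of 0 with few exceptions, and white fat, macrophage and matrix lists to the left. After division by total FPKM the medians of the adrenergic and thyroid list and of the NRF2 list are below 0.

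The pathways that feed the respiratory chain rose with it. Of 27 genes of the citric acid cycle and pyruvate entry, 24 were higher in BAT (median 2.62). Suclg1, of succinyl-CoA ligase, was at 284, 222, 263, 268 and 314 FPKM in BAT and 23.5, 16.7, 21.4, 22.7 and 24.1 FPKM in iWAT (log2 difference 3.64, SE 0.06, adjusted p = 6.09e-07). Pdk4, the kinase that closes pyruvate entry when fat is burned, was at 590.3 ± 92.1 FPKM against 24.95 ± 7.52 (log2 difference 4.60, SE 0.17, adjusted p = 3.14e-06). Its relative Pdk3 was instead higher in iWAT (2.19 ± 0.413 against 0.654 ± 0.188 FPKM, log2 difference -1.62). Pcx, which refills the cycle from pyruvate and serves lipogenesis in white fat, was at 180.1 to 223 FPKM in BAT and 143 to 294 FPKM in iWAT and did not pass (adjusted p = 0.22).

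Mitochondrial fatty acid oxidation showed the same balance, with 22 of 24 genes higher in BAT (median 2.50). Acaa2, the thiolase that ends each round of oxidation, was at 1941 ± 188 FPKM against 92.0 ± 12.9 (log2 difference 4.40, SE 0.08, adjusted p = 7.6e-07). Acadvl, which opens the round for long chains, was at 645 ± 65.0 against 36.4 ± 7.38 FPKM (log2 difference 4.16, SE 0.09, adjusted p = 8.46e-07). The entry step differed by isoform. Cpt1b, the muscle form of carnitine palmitoyltransferase 1, was at 9.81, 7.34, 9.77, 9.77 and 11.8 FPKM in BAT and 0.125, 0.0982, 0.182, 0.184 and 0.245 FPKM in iWAT (log2 difference 5.21, SE 0.10, adjusted p = 7.6e-07). Cpt1a, the liver form, was at 7.79, 9.99, 7.55, 7.92 and 7.33 FPKM in BAT and 35.3, 26.2, 32.2, 34.1 and 36.1 FPKM in iWAT (log2 difference -2.001, SE 0.13, adjusted p = 3.28e-05). Neither form overlapped between the depots, and per length BAT held more Cpt1b than Cpt1a in 4 of 5 mice and iWAT more Cpt1a than Cpt1b in all 5. Acsl1, which activates fatty acids, did not pass, at 241 ± 31.5 and 239 ± 44.6 FPKM (adjusted p = 0.783), and its small positive difference turned negative after division by total FPKM or quantile normalization.

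Carriers of the inner mitochondrial membrane were mixed, with 15 of 22 higher in BAT and 4 higher in iWAT (median 1.03), and 10 and 6 after division by total FPKM (median 0.17). Ucp1 leads this list as well. Ucp2, a relative of Ucp1 that is common in immune cells, was higher in iWAT (36.9 ± 4.56 against 13.9 ± 2.46 FPKM, log2 difference -1.41), and Ucp3, a relative known from muscle, higher in BAT (44.7 ± 12.999 against 12.8 ± 2.95 FPKM, log2 difference 1.79). Skeletal muscle averaged 66.6 FPKM of Ucp3. The BAT libraries of mice 2 and 4, with muscle fibre sums of 46.4 and 46.8 FPKM, held more Ucp3 than any iWAT library. The part of muscle RNA in the Ucp3 values was not tested. Slc25a10, the dicarboxylate carrier that serves lipid synthesis, was at 9.32, 14.2, 6.76, 8.00 and 10.5 FPKM in BAT and 165, 86.7, 126, 140.4 and 157 in iWAT (log2 difference -3.79, SE 0.24, adjusted p = 2.65e-05). It was among the few mitochondrial genes with a large excess in iWAT.

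Of 27 genes of lipid synthesis 16 were higher in BAT and 7 higher in iWAT (median 0.99), while after division by total FPKM the counts were 12 and 12 (median 0.12) and under quantile normalization 13 and 8 (median 0.16). Fasn, fatty acid synthase, was at 1270.1, 1200.3, 1579.6, 915 and 1763 FPKM in BAT and 270.2, 145, 176, 216 and 279.5 in iWAT (log2 difference 2.64, SE 0.18, adjusted p = 3.88e-05). Acly, Acaca and Elovl6, the steps before and after it, had log2 differences of 3.14, 3.36 and 4.14, and Gpd1, which makes the glycerol backbone, 2.55. The BAT values of Fasn, Acly, Acaca and Elovl6 were all lowest in mouse 4. The desaturases differed from each other. Scd1 was at 4203 to 6214 FPKM in BAT and 1635 to 3330.4 FPKM in iWAT (log2 difference 1.07, which turned to -0.10 under quantile normalization), while Scd2 was higher in iWAT (-1.56). Mogat2, of triglyceride synthesis, was at 7.99 ± 1.08 FPKM in iWAT against 0.87 ± 0.201 in BAT (-3.07), and Dgat2, of its last step, at 1038 ± 189 against 807 ± 102 (-0.35, a small difference that no longer passed without the mouse block or on leaving out mouse 1, 3 or 5, with adjusted p from 0.0553 to 0.0857).

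Of 31 genes of glucose uptake, glycolysis and glycogen, 22 were higher in BAT and 2 in iWAT (median 1.89), with 19 and 9 after division by total FPKM (median 1.03) and 21 and 4 under quantile normalization. Slc2a4, the insulin-responsive glucose transporter, was at 134, 116, 145, 124 and 161 FPKM in BAT and 37.1, 26.3, 36.4, 43.4 and 41.7 FPKM in iWAT (log2 difference 1.89, SE 0.10, adjusted p = 1.06e-05). Hk2, which traps glucose, differed by 2.12, and Ldhb, the lactate dehydrogenase form of oxidative tissues, by 3.90. Slc2a1, the basal glucose transporter, was instead higher in iWAT (4.04 ± 0.753 against 2.29 ± 0.159 FPKM, -0.78). Tpi1 did not pass (adjusted p = 0.839), and its sign depended on the scaling. Breakdown of branched-chain amino acids was higher in BAT for 20 of 22 genes (median 1.15), and for 12 with 3 higher in iWAT after division by total FPKM (median 0.29). Pccb, of propionyl-CoA carboxylase, was at 240.2 ± 12.4 FPKM against 62.9 ± 11.9 (1.95). The first step again differed by isoform, with Bcat1, the cytosolic transaminase, higher in iWAT (4.22 ± 0.621 against 0.667 ± 0.0904 FPKM, -2.49) and Bcat2, the mitochondrial one, at 26.4 to 27.8 FPKM in BAT and 21.4 to 29.9 FPKM in iWAT (adjusted p = 0.891).

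In the list of 17 shared adipocyte genes 4 were higher in BAT and 11 in iWAT (median -0.38), and among 32 genes of lipid droplets, lipases and fatty acid uptake 11 and 14 (median -0.14). Without mice 3 and 4 the counts in BAT and iWAT were 3 and 7 for the first list and 9 and 9 for the second. After division by total FPKM they were 1 and 15 (median -1.25) and 7 and 24 (median -0.99), and under quantile normalization 3 and 14 and 7 and 18. Pparg, the master regulator of adipocytes, was at 98.8, 87.4, 98.0, 106 and 119 FPKM in BAT and 59.3, 37.0, 53.2, 53.6 and 65.6 in iWAT (log2 difference 0.94, SE 0.08, adjusted p = 0.000122). Plin1, the main coat protein of the droplet, was at 452, 417, 416, 399 and 459 FPKM in BAT and 421, 298, 449, 479 and 486 FPKM in iWAT and did not pass (adjusted p = 0.859, with a difference that was positive as deposited and negative after division by total FPKM or quantile normalization). Other coat proteins split between the depots. Plin5, which ties droplets to mitochondria, was higher in BAT (169 ± 17.2 against 9.96 ± 2.53 FPKM, 4.10), and Plin4 higher in iWAT (569.8 ± 103 against 128 ± 17.5, -2.14). Cidec, which fuses droplets into large ones, was at 475, 396, 467, 506 and 562 FPKM in BAT and 2141, 1090.0, 1778, 1736 and 1678 FPKM in iWAT (log2 difference -1.78, SE 0.13, adjusted p = 4.45e-05), opposite to its relative Cidea. Of the lipases, Pnpla2, which starts lipolysis, was higher in BAT (1.23, and 0.37 after division by total FPKM), Lpl, which takes up fatty acids from blood lipoproteins, higher in iWAT (926 ± 198 against 235 ± 15.7 FPKM, -1.95), and Lipe, hormone-sensitive lipase, slightly higher in BAT (0.33, adjusted p = 0.0875 without mice 3 and 4). The difference of Lipe and that of G0s2, an inhibitor of lipolysis (0.59), turned negative after division by total FPKM or quantile normalization.

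Genes that mark white or subcutaneous fat were lower in BAT than in iWAT. Of 29 tested, 25 were higher in iWAT, 20 over 2-fold, and 0 higher in BAT (median -3.11). Without the BAT library of mouse 3 and the iWAT libraries of mice 2 and 4, and without the mouse block, the count in iWAT was 28. The background was 32.4% higher in iWAT. The summed level of the list was 5418 to 8178 FPKM in iWAT and 1027 to 1330 FPKM in BAT. In eWAT of the same mice it was 937 to 3679 FPKM, which overlaps BAT, and in skeletal muscle 1460 to 1949 FPKM. The counts therefore describe iWAT against BAT and not white fat in general. Mest, an imprinted gene known to rise when white fat expands, was at 2.53, 3.42, 1.28, 1.79 and 1.70 FPKM in BAT and 276, 145, 202, 179 and 213 FPKM in iWAT (log2 difference -6.54, SE 0.25, adjusted p = 3.14e-06). Slc7a10, an amino acid transporter of white adipocytes, was at 131 ± 23.6 FPKM in iWAT against 4.36 ± 1.61 in BAT (-4.92). Nnat differed by -3.35, Sncg by -3.11, Npr3, the clearance receptor of natriuretic peptides, by -2.05, and Car3, a carbonic anhydrase, by -2.03 at 3340.0 ± 587 FPKM in iWAT. Car3 averaged 812 FPKM in BAT, 567 FPKM in eWAT and 1216 FPKM in skeletal muscle, so its high level was that of iWAT and not of both white depots. The 4 members that did not pass included Rb1 (7.14 to 8.65 FPKM in BAT, 7.71 to 9.74 in iWAT), Tbx15 (1.33 to 5.69 and 2.23 to 5.30) and Cd24a. The highest Cd24a values were in iWAT of mouse 2 and in BAT of mouse 3, the libraries with lymphocyte and with muscle RNA. Its log2 difference of -0.92 (adjusted p = 0.336) was -0.11 without mouse 2 and -1.59 without mouse 3.

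The 15 protein-coding genes with the largest excess in iWAT were Oxtr, Sfrp5, Lipf, Hoxc10, Mest, Cyp2e1, C6, Slc5a7, Hoxc9, Crtac1, Tph2, Igfals, Hoxa10, Retn and Fgf13. Oxtr, the oxytocin receptor, was at 69.5, 29.0, 46.4, 45.2 and 47.0 FPKM in iWAT and 0.0723, 0.502, 0.0705, 0.19 and 0.0857 FPKM in BAT (log2 difference -7.52, SE 0.42, adjusted p = 1.47e-05). Sfrp5, a secreted Wnt inhibitor, was at 218, 138, 226, 163 and 141 FPKM in iWAT and 0.874, 2.20, 1.07, 0.958 and 0.792 FPKM in BAT (log2 difference -7.18, SE 0.26, adjusted p = 2.81e-06). For both the highest BAT value was that of mouse 2, and it remained far under any iWAT value. The list held several secreted proteins beside Retn. Lipf, a lipase best known from the stomach, averaged 23.5 FPKM in iWAT (-7.16), Igfals, which binds insulin-like growth factors in blood, 53.9 (-5.85), and C6, of the complement cascade, 13.2 (-6.28). Cyp2e1, a cytochrome P450, was at 117 ± 41.5 FPKM in iWAT (-6.36), with mouse 2 lowest. Tph2, an enzyme of serotonin synthesis, was at 41.7 ± 10.9 FPKM (-5.86), Slc5a7, the choline transporter of cholinergic nerves, at 13.8 ± 4.88 (-6.16), Crtac1 at 37.9 ± 7.98 (-6.03) and Fgf13 at 25.3 ± 4.35 (-5.59). Most of the 15 were also found in eWAT of the same mice. Means there were 23.0 FPKM for Oxtr, 52.5 for Sfrp5, 44.2 for Mest, 38.8 for Retn, 17.5 for Tph2 and 16.0 for Cyp2e1. Igfals averaged 12.5 FPKM there, Slc5a7 9.73, Fgf13 9.45, Crtac1 8.65, C6 4.30 and Lipf 2.45. The Hox genes were lowest, at 1.03 FPKM for Hoxc9, 0.0275 for Hoxa10 and 0.018 for Hoxc10.

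Secreted factors were mostly higher in iWAT. Of 40 tested, 25 were higher in iWAT and 7 in BAT (median -1.12), and without mice 3 and 4 the count in iWAT was 19. Retn, which encodes resistin, was at 10.3, 7.25, 3.63, 6.38 and 9.44 FPKM in BAT and 445, 229.9, 383, 411 and 416 FPKM in iWAT (log2 difference -5.70, SE 0.23, adjusted p = 4.17e-06). Adipoq, which encodes adiponectin, differed less, at 591, 599, 482, 532 and 551 FPKM in BAT and 1930.5, 1096, 1833, 1906 and 1557 FPKM in iWAT (log2 difference -1.57, SE 0.17, adjusted p = 0.000284). Cfd, the complement factor adipsin, was at 739.7 ± 259 against 242 ± 68.2 FPKM (-1.59), and Retnla, which macrophages can also make, at 223 ± 92.4 against 7.54 ± 2.55 (-4.82). The 7 genes higher in BAT included Ptgds, which makes prostaglandin D2 (20.6 ± 4.75 against 0.663 ± 0.951 FPKM, 5.48), Nampt, of NAD synthesis (1.73), Vegfa, the vascular growth factor (1.12), Nrg4, a neuregulin of brown fat (1.07), and Gdf15, a stress cytokine (0.96 to 3.18 FPKM against 0.669 to 1.03, 1.07, adjusted p = 0.0687 without mice 3 and 4). Fgf21, a hormone of fasting that active brown fat can also release, was low in both, at 0.737 ± 0.248 FPKM in BAT and 1.63 ± 0.246 FPKM in iWAT (-1.08).

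The depots differed in genes of body position. Hox genes encode transcription factors that record position along the body axis, with low numbers toward the head and high numbers toward the tail. Of 39 Hox genes 24 were tested, 7 were higher in BAT and 11 higher in iWAT. Of the 15 under the level tested, 9 had no read in either depot. Those higher in BAT were Hoxa2 (0.72), Hoxa3 (1.03), Hoxa4 (2.91), Hoxa5 (2.18), Hoxb4 (0.38), Hoxc4 (1.63) and Hoxc5 (0.57), all numbered 5 or below. The small differences of Hoxa2, Hoxb4 and Hoxc5 turned negative after division by total FPKM. Hoxa5 was at 15.7, 13.8, 15.1, 14.1 and 13.8 FPKM in BAT and 3.39, 3.08, 3.31, 3.43 and 2.49 FPKM in iWAT (log2 difference 2.18, SE 0.08, adjusted p = 2.44e-06). Hoxa4 was at 11.8, 7.03, 9.74, 10.1 and 9.35 FPKM in BAT and 1.26, 1.13, 1.18, 1.41 and 0.922 FPKM in iWAT (log2 difference 2.91, SE 0.11, adjusted p = 3.68e-06). The spread within each depot was small beside these differences. Neighbouring Hox genes overlap in the genome, so reads can be split between them. Hoxc8, Hoxc9 and Hoxc10 are also in the list of white fat genes.

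Those higher in iWAT, apart from Hoxb5, were numbered 6 or above. Hoxc10 was at 10.97, 8.13, 12.1, 16.2 and 13.6 FPKM in iWAT, and a single read fell on it in the 5 BAT libraries together against 2573 in iWAT, a ratio of 1791 with an exact 95% counting interval of 321 to 70786. Hoxa10 had 0 reads in BAT and 2041 in iWAT (6.07, 4.24, 4.68, 7.18 and 5.92 FPKM), at least 474-fold higher in iWAT when 3 reads over the 5 BAT libraries are taken as the limit. Hoxc9 had 3 reads in BAT against 2210, a ratio of 513 (interval 175 to 2489). Hoxc8 (34.5 ± 4.99 against 2.06 ± 0.858 FPKM, -4.08) and Hoxa9 (2.78 ± 0.773 against 0.0708 ± 0.0349, -4.05) were present in BAT at low levels. Smaller differences in the same direction were found for Hoxd9 (-1.41), Hoxb7 (-1.35), Hoxb5 (-1.34), Hoxb8 (-1.24), Hoxc6 (-0.91) and Hoxb6 (-0.80). Hoxa2 did not pass on leaving out mouse 1, 3 or 5 (adjusted p up to 0.14), and Hoxb4 on leaving out mouse 5 (0.0515). Without mice 3 and 4 Hoxc6, Hoxb6, Hoxb7, Hoxb4 and Hoxa2 no longer passed. Hoxb2, Hoxb3, Hoxa6, Hoxa7 and Hoxd8 did not pass, with differences between -0.58 (Hoxa6) and 0.18 (Hoxb2). In eWAT the means were 11.7 FPKM of Hoxc8, 0.018 of Hoxc10 and 3.79 of Hoxa5, and skeletal muscle averaged 69.9 FPKM of Hoxc10.

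**Figure D5:**
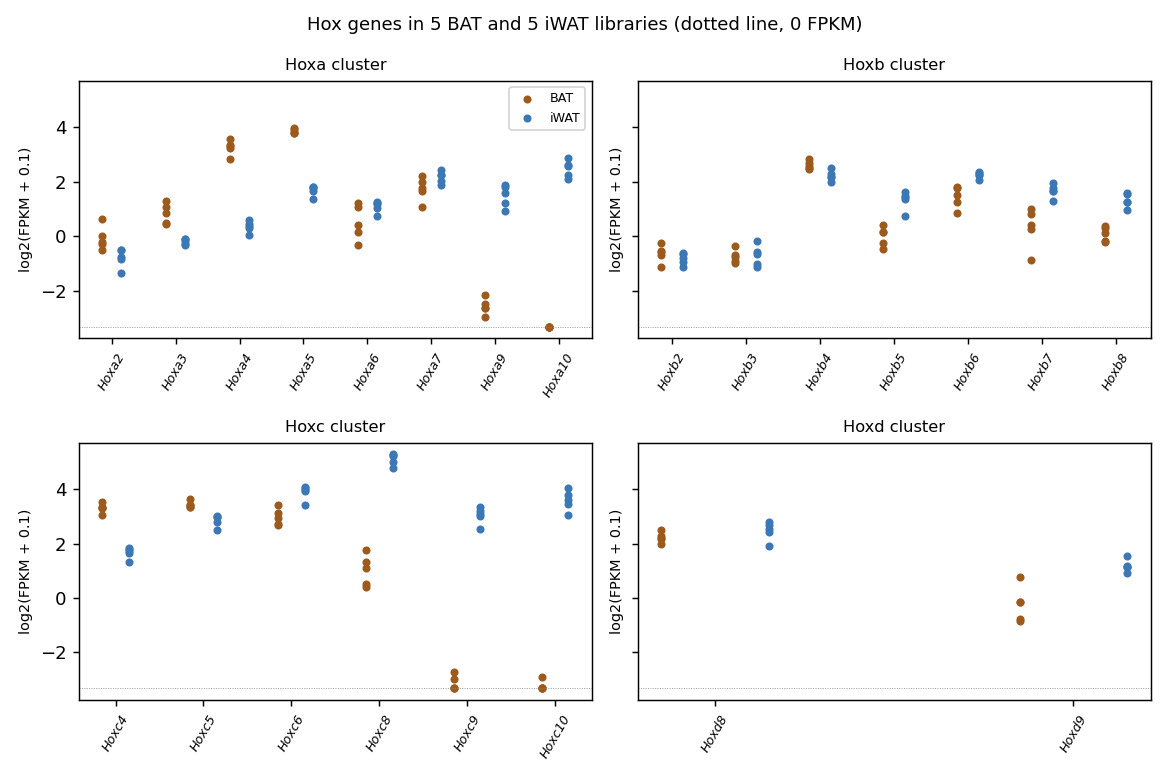
Level, log2(FPKM + 0.1), of the Hox genes named in the text, by cluster, in the 5 BAT and 5 iWAT libraries; each point is 1 library and the dotted line is 0 FPKM. BAT is higher at Hoxa4, Hoxa5 and Hoxc4, and iWAT is higher from Hoxc8 to Hoxc10 and at Hoxa9 and Hoxa10.

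Of 19 other developmental factors tested 5 were higher in BAT and 5 in iWAT (median -0.02). The count in iWAT was 2 without mouse 1 or mouse 4, 3 without mouse 3 or mouse 5 and 8 without mouse 2. After division by total FPKM the counts were 4 and 14 (median -0.88), and under quantile normalization 8 and 4. Zic1, a marker of the dorsal origin of brown fat, was at 1.07, 2.26, 1.28, 1.93 and 1.37 FPKM in BAT, while in iWAT it had 5 reads, all in mouse 4 (log2 difference 3.92, SE 0.33, adjusted p = 9.96e-05). Tbx5, a factor of the forelimb field, was at 2.05 ± 0.423 against 0.276 ± 0.067 FPKM (2.51), and Shox2, known from limb and subcutaneous fat, at 0.574 ± 0.288 against 6.43 ± 2.09 (-3.36). Twist1, a mesenchymal factor that restrains the brown program, did not pass at 15.01 to 21.9 FPKM in BAT and 12.7 to 22.0 in iWAT. Of 12 genes used as beige markers 4 were higher in BAT and 7 in iWAT (median -0.90). The lowest value among the 12 was that of Hoxc9 (-6.16), which is also counted with the Hox and white fat genes. Of the 8 with a mean of 5 FPKM or more 4 were higher in BAT and 3 in iWAT (median 0.25). Slc36a2 (209 ± 21.2 against 92.4 ± 22.6 FPKM, 1.21) and Kcnk3, a potassium channel (1.73), were higher in BAT, Ear2 was higher in iWAT (-2.46), and Car4 did not pass at 22.1 ± 2.35 and 22.7 ± 4.43 FPKM (adjusted p = 0.868).

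Signals that drive heat production differed at several levels. Of 27 genes of adrenergic, natriuretic and thyroid hormone signalling 18 were higher in BAT and 4 in iWAT, with a median of 0.73 that became -0.13 after division by total FPKM. Adrb3, the receptor through which noradrenaline activates adipocytes, was at 115, 121, 166, 154 and 186 FPKM in BAT and 30.1, 23.5, 37.7, 32.1 and 40.6 FPKM in iWAT (log2 difference 2.17, SE 0.08, adjusted p = 2.44e-06). Adrb1 and Adra1a, further adrenergic receptors, differed by 2.96 and 1.59. Gnas, which couples beta-adrenergic receptors such as those of Adrb3 and Adrb1 to adenylyl cyclase, differed by 2.46. A gene of the cyclase itself differed in the other direction. Adcy5 was at 1.61, 2.77, 1.17, 1.77 and 1.64 FPKM in BAT and 41.9, 22.7, 42.6, 44.1 and 44.5 FPKM in iWAT (log2 difference -4.39, SE 0.28, adjusted p = 3e-05), with no overlap.

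Receptors of other hormones were mostly higher in iWAT (16 of 25, with 4 higher in BAT, median -0.83). Tshr, the thyrotropin receptor, was at 2.58, 3.56, 2.96, 2.40 and 2.37 FPKM in BAT and 28.3, 19.0, 28.7, 28.1 and 29.6 FPKM in iWAT (log2 difference -3.22, SE 0.18, adjusted p = 1.42e-05). Mc2r, the receptor of corticotropin, differed by -3.65 and Ghr, that of growth hormone, by -2.08. Sctr, the secretin receptor, ran the other way at 8.58 ± 1.78 FPKM in BAT and 1.37 ± 0.249 FPKM in iWAT (2.56). Insr, the insulin receptor, did not pass (6.30 to 7.58 FPKM in BAT, 5.69 to 7.71 in iWAT, adjusted p = 0.701). The creatine and calcium cycles have been proposed as further sources of heat. In a list of 9 tested genes drawn mainly from these cycles, 5 were higher in BAT and 2 in iWAT. After division by total FPKM the counts were 2 and 3. Atp2a2, the calcium pump, was at 62.5 ± 18.7 FPKM against 28.2 ± 4.16 (1.12), and Gamt, of creatine synthesis, was higher in iWAT (-2.39). Pm20d1, which makes N-acyl amino acids and belongs to neither cycle, was at 3.89 ± 0.343 FPKM in BAT against 0.719 ± 0.204 in iWAT (2.31). Ckb did not pass (15.3 ± 2.43 and 19.5 ± 4.60 FPKM). Ckmt2, a mitochondrial creatine kinase also found in muscle, was at 3.82, 0, 59.9, 0.036 and 9.11 FPKM in BAT and 0, 0.0743, 0.0317, 10.6 and 0.0927 in iWAT, highest where the muscle genes were highest (log2 difference 2.52, SE 2.11, adjusted p = 0.336). Without mouse 4 it was 4.73 (adjusted p = 0.0406).

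SFN, the compound of the study, is known to act through the antioxidant regulator NRF2, so the resting level of its targets is given for the vehicle-treated mice. Of 27 targets 11 were higher in BAT and 10 higher in iWAT (median 0.05, with -0.81 after division by total FPKM and -0.18 under quantile normalization). Gpx3, a secreted glutathione peroxidase, was at 762, 968, 849.8, 888 and 908 FPKM in BAT and 93.8, 80.3, 143, 127 and 92.4 FPKM in iWAT (log2 difference 3.06, SE 0.15, adjusted p = 9.71e-06). Sod2, mitochondrial superoxide dismutase, differed by 2.03. Hmox1, heme oxygenase, was higher in iWAT (41.9 ± 4.18 against 15.2 ± 4.99 FPKM, -1.51), as were Gsta3 (-3.12) and Nqo1, a quinone reductase often used to read NRF2 activity (2.61 ± 0.368 against 1.18 ± 0.573, -1.19). Gclc, of glutathione synthesis, did not pass at 6.08 ± 0.334 and 6.15 ± 0.772 FPKM (adjusted p = 0.911).

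The depots also differed in RNA of other cells. Macrophage genes were higher in iWAT for 23 of 24, with sums of 983 to 1536 FPKM there and 183 to 683 FPKM in BAT, and of 3400.3 to 7792 FPKM in eWAT of the same mice. Without mice 3 and 4 the count was 12. Itgax, an integrin of macrophages and dendritic cells, was at 16.5, 9.51, 14.4, 11.6 and 6.64 FPKM in iWAT and 1.37, 2.60, 0.59, 1.06 and 0.441 FPKM in BAT (log2 difference -3.34, SE 0.33, adjusted p = 0.000201). Cd163 (-2.32) and Lyz2, lysozyme (-1.26), differed the same way, and Adgre1, which encodes the F4/80 antigen, was higher in iWAT with overlap (-1.51, adjusted p = 0.0876 without mice 3 and 4). Timd4 was high only in iWAT of mouse 2, at 0.56, 15.6, 1.28, 0.373 and 1.08 FPKM (-2.998, adjusted p = 0.0575 without mice 3 and 4). Ms4a7 did not pass (1.04 to 3.57 and 2.03 to 3.32 FPKM). BAT of mouse 2 held the most macrophage RNA among the BAT libraries and BAT of mouse 5 the least.

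Matrix genes were higher in iWAT for 27 of 42 and in BAT for 2 (median -1.09), and fibroblast and progenitor genes for 13 of 22 and 1 (median -1.04). Without mice 3 and 4 the counts in iWAT were 10 and 7, and the second was 8 on leaving out mouse 3 or mouse 5. Sparc, a collagen-binding protein, was at 1907, 1163, 1842, 2007 and 1719 FPKM in iWAT and 502, 596, 437, 559 and 454 FPKM in BAT (log2 difference -1.75, SE 0.17, adjusted p = 0.000209), and Col15a1, of the basement membrane, at 141 ± 27.1 against 27.3 ± 6.99 FPKM (-2.38). Col1a1, the main fibrillar collagen, overlapped at 67.2, 158, 59.8, 116 and 40.3 FPKM in BAT and 129.8, 74.3, 116, 125 and 149 FPKM in iWAT (adjusted p = 0.254). Its BAT values were highest in mouse 2, the BAT library with the most macrophage RNA.

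Of 19 endothelial genes 5 were higher in BAT and 5 higher in iWAT (median -0.11), and 0 and 17 after division by total FPKM (median -0.97), with sums of 742 to 808 and 648 to 828 FPKM. Without mice 3 and 4 the counts were 3 and 2, and the count in iWAT was 8 without mouse 2 and 3 without mouse 3 or mouse 5. Among 10 genes of vascular smooth muscle and pericytes, 4 were higher in BAT and 3 in iWAT (median 0.51, and -0.35 after division by total FPKM). Rgs5, a pericyte gene, was at 99.2 ± 6.96 FPKM in BAT and 41.4 ± 9.41 FPKM in iWAT (1.29), while Acta2, smooth muscle actin (17.5 ± 2.09 against 94.9 ± 14.4, -2.43), and Mcam (-1.91) were higher in iWAT. All 5 tested red cell genes were higher in BAT (median 1.26). Hbb-bs, an adult beta globin, was at 491, 586, 497, 853 and 494 FPKM in BAT and 239.8, 278, 164, 430.5 and 161 FPKM in iWAT (log2 difference 1.26, SE 0.13, adjusted p = 0.000224), though globin genes have near-identical copies between which reads can be split. Nerve and Schwann cell genes were higher in iWAT for 5 of 9 and in BAT for 1, with the same counts without mouse 4. Of 28 muscle fibre genes 0 passed, and without mouse 4 15 were higher in BAT. Acta1 was at 102, 0.906, 1453, 0.314 and 262 FPKM in BAT and 14.9, 12.4, 25.8, 538 and 19.9 FPKM in iWAT (log2 difference -0.34, adjusted p = 0.907, -1.88, adjusted p = 0.539, without mouse 3, and 2.16, adjusted p = 0.263, without mouse 4). Ckm and Myh4 were also highest in BAT of mouse 3 (adjusted p = 0.44 and 0.489, 0.875 and 0.948 without mouse 3, and 0.0309 and 0.0411 without mouse 4). Of lymphocyte genes 2 of 13 for B cells and 0 of 12 for T and NK cells passed as higher in iWAT, with 2 and 3 without mouse 2. Leaving out mouse 1, 3 or 5 gave 1 B cell gene. Of the remaining cell lists 2 of 5 lymph node stroma genes (2 as well without mouse 2), 5 of 8 neutrophil and mast cell genes, 2 of 3 lymphatic genes, 1 of 5 cartilage, bone and tendon genes and 0 of 1 skin genes were higher in iWAT. The count of neutrophil and mast cell genes was 2 without mouse 1 and 3 without mouse 3 or mouse 5, and 1 cartilage, bone and tendon gene was higher in BAT. No mesothelial gene reached the level tested.

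The same comparison in the 5 SFN-treated mice used other animals and other libraries. Of the same 14017 genes 8525 passed, 4024 higher in BAT and 4501 higher in iWAT. Of the 8383 genes that passed in vehicle-treated mice, 8248 (98.4%) had the same direction in the SFN-treated mice, and 7056 also passed there in that direction. Of the 1688 over 2-fold, 1687 had the same direction and 1680 passed. Ucp1 differed by 13.53 in the SFN-treated mice and Lep by -4.21. Fabp3, whose iWAT level in vehicle-treated mice was raised in 1 library, differed by 11.61, Cpt1a by -1.70, Hoxc10 by -6.75 and Adcy5 by -4.07. Lhx8 was at -0.69, Atp5g3 at -0.02 and Plin1 at 0.19. Dgat2 had the opposite sign there (0.53, adjusted p = 0.108), and Tpi1 passed as higher in BAT (0.57, adjusted p = 0.02).

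Whether SFN changed the difference between depots was tested on the 10 differences per mouse, 5 against 5. No gene (0% of 14017) passed by limma, and no other tool was run on this question. At an unadjusted p under 0.05 there were 1460 genes, and the smallest adjusted p was 0.247. For Ucp1 the depot difference was larger by 0.10 on the log2 scale in the SFN-treated mice (adjusted p = 0.958), and for Lep it was lower, at -0.39 (adjusted p = 0.718). These tests do not show that the depots differed alike under both treatments.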

How the data were processed

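Total RNA was extracted with Trizol, enriched for poly A RNA and sequenced, and each library is 1 tissue of 1 mouse. The authors deposited FPKM values of all genes in 60 libraries, and raw read counts with gene lengths for the genes that differed with SFN at an unadjusted p in 1 tissue. The submitters' processing notes name the builds GRCm38 and mm10. Which aligner, counter, annotation release and strand setting were used is not given in the sources used here. The deposited tables also hold counts divided by size factors, fold changes and p-values of the authors' own comparisons, which were not used. FPKM times length gave whole reads, within 0.01 of a read after 1 scale for each library, for 31719 genes above 0, 10056 with the deposited length, 21176 with the length from the annotation and 487 with a fitted length, which tests nothing. Of 41170 deposited counts compared with the recovered reads 0 differed. The scale of each library came from these same counts, so this does not check genes recovered with other lengths. Depths are sums of these reads.

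Genes averaging 0.5 FPKM or more across the 10 libraries were tested on log2(FPKM + 0.1) by limma with a mean trend and the mouse as a block, and p-values were adjusted over all 14017 genes by the Benjamini-Hochberg method. A fold change on this scale understates the change of low genes. Differences over 2-fold were tested with limma's treat. The depot difference of each mouse was compared between treatments by limma. The pairing comes from the labels, which give the mouse of each library. The deviations of BAT and iWAT of 1 mouse from the group means correlated at 0.00914, 0.15, -0.19, -0.43 and 0.11 in mice 1 to 5. Mice are separate animals, and with the mouse as a block p-values rest on how the depot difference varies between mice.

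The genes and the 40 gene lists were chosen with earlier results of these data known. Named were Ucp1 and Lep, the 15 protein-coding genes with the largest difference each way (mean of at least 1 FPKM, passing, same direction in all 5 mice), from each list up to 12 genes by size of difference or, where not passing, by level, and the tested Hox genes, with levels in eWAT and skeletal muscle. Chosen after their values were seen were mt-Nd6, Scd1, Scd2, Car3, Dgat2, Sncg, G0s2, Lyz2, Lipe, Ndufb3, Cox7a2l, Vegfa, Letmd1, Slc2a1, Slc2a4, Esrra, Esrrg, Otop1, Nampt, Ucp2, Cpt1a, Adgre1, Nrg4, Atpif1, Atp5g1, Atp5g2, Ppargc1a, Epsti1, Gdf15, Pdk3 and Fgf21, and the 3 start regions printed. A few genes that the rule names are not reported here. Alternatives were pseudocounts of 1 and 0.01, no filter, a mean of 5 FPKM, other scalings, no mouse block, each mouse left out, and edgeR and DESeq2 on recovered reads. The count models called 8385 genes (edgeR) and 8059 genes (DESeq2). Leaving out mice 3 and 4, or the BAT library of mouse 3 with the iWAT libraries of mice 2 and 4, was added after seeing the data. The fit that left out single libraries had no mouse block. R 4.3.3, limma 3.58.1, edgeR 4.0.16 and DESeq2 1.42.0 were used, and the scripts were tested on simulated data.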

Additional observations from a re-analysis of the deposited data

Results flagged for a closer look

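Among the 5 mice of a depot, a library was examined for a value whose gap to the nearest other value was over 0.71 of the whole range, on the scale log2(FPKM + 0.1) of the tests. Of 364 groups of 5 values 50 had such a library, 8 in BAT and 42 in iWAT. For independent normal values about 1 in 20 groups would have one. These groups share the same 10 libraries and hold genes chosen with the data known, so that rate does not measure chance here. The iWAT library of mouse 2 accounted for 34. Each value is given in FPKM with the range of the other 4 mice in brackets.

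The iWAT library of mouse 2, which held the most lymphocyte RNA, was low for most of these genes. Its total FPKM was also the lowest in iWAT, at 228097 against 263942 to 283378 in the other iWAT libraries. The part of that scale in the low values was not tested. The low values were Cox6a1 326 (471 to 499), Atp5b 217 (329 to 379), Sparc 1163 (1719 to 2007), Acaa2 69.6 (94.5 to 102), Dgat2 705 (1084 to 1158), Pnpla2 255 (449 to 483), Uqcrfs1 70.0 (107 to 121), G0s2 214 (341 to 375) and Plin4 394 (575 to 646). Low as well were Sdhd 65.3 (92.8 to 99.98), Ndufv1 35.8 (52.0 to 57.5), Lipe 156 (227 to 239), Sdhb 34.6 (45.6 to 50.9), Acsl1 162 (241 to 270.0), Ndufb3 86.4 (129 to 143), Retn 229.9 (383 to 445), Pccb 43.1 (64.2 to 75.4) and Atp5g3 84.6 (124 to 138). Low as well were Mcam 116 (175 to 192), Slc7a10 90.4 (135 to 152), Cyp2e1 43.8 (122 to 142), Ghr 64.0 (95.9 to 106), Kcnk3 14.0 (21.4 to 24.1), Ucp3 7.72 (12.8 to 14.97), Bcat2 21.4 (27.7 to 29.9), Car4 15.1 (23.4 to 26.5) and Tph2 23.3 (40.7 to 50.7). Low as well were Adcy5 22.7 (41.9 to 44.5), Crtac1 23.8 (39.9 to 43.3), Tshr 19.0 (28.1 to 29.6), Lipf 11.6 (25.2 to 28.8) and Hoxc6 10.6 (15.1 to 16.8). In the same library Epsti1 21.7 (2.42 to 3.16) and Irf4 4.38 (1.16 to 1.47) were high.

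The iWAT library of mouse 4, with muscle and nerve RNA, had apart Fabp3 22.4 (0.398 to 0.801), Acta1 538 (12.4 to 25.8), Cox6a2 30.0 (2.81 to 4.34), Ckmt2 10.6 (0 to 0.0927), Hoxb5 1.56 (2.50 to 2.99) and Zic1 0.0419 (0 to 0). In iWAT of mouse 1 the value apart was Pm20d1 1.08 (0.61 to 0.681). In iWAT of mouse 5 the value apart was Gdf15 0.669 (0.936 to 1.03). In BAT of mouse 1 it was Hoxc5 12.3 (9.92 to 10.5). In BAT of mouse 2 it was Cox8b 2559.8 (3426 to 3847), Dgat2 627 (831 to 864), Sfrp5 2.20 (0.792 to 1.07), Acta2 13.9 (17.6 to 19.1), Cpt1a 9.99 (7.33 to 7.92) and Hoxc10 0.0332 (0 to 0). In BAT of mouse 3 it was Atp5g1 8.11 (2.03 to 3.01). On the FPKM scale itself further values stand apart, among them Acta1, Cox6a2 and Ckmt2 in BAT of mouse 3, mt-Co3 in BAT of mouse 4 and Timd4 in iWAT of mouse 2. The part of other cells in these values was not tested.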

How the results depend on the processing

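Of 3236 values of 182 named genes under 18 alternatives, 3123 kept their direction and side of the threshold, 50 no longer passed, 48 passed newly and 15 turned sign. After division by the total FPKM 1242 genes were higher in BAT and 10504 in iWAT, with 3720 over 2-fold, 455 higher in BAT and 3265 in iWAT. This scaling turned Plin1 to -0.84, G0s2 to -0.27, Lipe to -0.53, Acsl1 to -0.83, Tpi1 to -0.83, Hoxc5 to -0.28, Cox4i2 to -0.50, Hoxb4 to -0.47 and Hoxa2 to -0.024 on the log2 scale. Quantile normalization turned Scd1 to -0.10, Plin1 to -0.76, G0s2 to -0.23, Lipe to -0.36, Acsl1 to -0.67 and Tpi1 to -0.56. With a pseudocount of 1, 440 genes were over 2-fold higher in iWAT. Among genes with a mean of 5 FPKM or more, which are fewer, 4631 passed, 2377 higher in BAT and 2254 higher in iWAT, with 1063 over 2-fold and 393 of them higher in iWAT. Without mice 3 and 4, which leaves 3 pairs, 5398 passed, 2681 of them higher in iWAT, with 1099 over 2-fold and 401 of them higher in iWAT. Leaving out 1 mouse at a time gave 7145 to 8978 genes, 3327 to 4049 higher in BAT and 3818 to 4929 higher in iWAT, with 1385 to 2021 over 2-fold, 817 to 943 higher in BAT and 563 to 1078 higher in iWAT. In the SFN-treated mice it gave 7353 to 7940 genes. For the effect of SFN on the depot difference it gave 0 to 2 genes, the 2 without mouse 1. The number of lists with a median above 0 was 20, and 16 to 22 under the alternatives.

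Without the mouse block 8526 genes passed, 3893 higher in BAT and 4633 higher in iWAT, with 1665 over 2-fold, and 8731 in the SFN-treated mice. Of the named genes only Dgat2 lost its call without the block. DESeq2 called 14 muscle fibre genes and 10 T and NK cell genes, and edgeR 1 and 3, where limma called 0 of each, and both called 4 lymph node stroma genes. After division by total FPKM the counts higher in BAT and higher in iWAT were 34 and 4 for brown fat genes, 13 and 4 for ATP synthase, 2 and 9 for beige markers, 3 and 18 for Hox genes, 4 and 32 for secreted factors, 1 and 24 for hormone receptors, 9 and 13 for the adrenergic and thyroid list, 3 and 21 for NRF2 targets, 0 and 21 for fibroblast and progenitor genes, 2 and 4 for smooth muscle and pericytes and 0 and 6 for T and NK cells. The cause of these changes was not tested.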
